A study of Mus musculus with 6 samples.

Results

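The endothelial cells that line the sinusoids of the liver were followed here through 9 genes, namely *Stab1*, *Stab2*, *Lyve1*, *Clec4g*, *Kdr*, *Tek*, *Pecam1*, *Cdh5* and *Eng*, in the livers of mouse pups with and without activation of a human *SRY* transgene. All probes of the liver array table that carried 1 of these symbols were taken, which gave 10 of the 25697 probes (9 of 18138 symbols), with *Pecam1* represented by 2 probes and each other gene by 1. The genes were taken as known endothelial genes by symbol, with earlier results of these data known, and the rule itself uses no measured value. Of the 10 probes, 9, covering 8 genes, were detected on enough arrays to be tested.

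Liver sinusoidal endothelial cells form a fenestrated lining without a continuous basement membrane, through which plasma reaches the hepatocytes. They clear waste macromolecules such as hyaluronan from blood with scavenger receptors, among them the stabilins encoded by *Stab1* and *Stab2*. Like other endothelia they carry receptors for vascular endothelial growth factor (VEGF) and for angiopoietins, and adhesion molecules at the contacts between cells. *SRY*, the switch gene of male sex determination on the Y chromosome, encodes a DNA-binding protein related to the SOX factors.

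RNA was measured in the whole liver of male FVB/N pups (FVB in the labels) at postnatal day 6 (P6) on Illumina MouseRef-8 bead arrays, 3 from hSRY-ON and 3 from hSRY-OFF mice. Per the methods of the study, mice designated hSRY-OFF carry *Signalox-hSRY*, a single-copy cassette integrated at the *H11* locus of chromosome 11, without Cre recombination, so that its ubiquitous CAG promoter drives the red fluorescent protein DsRed2. In hSRY-ON mice, Cre recombinase from the oocyte of a *Ddx4-Cre* mother had removed DsRed2 in the early embryo and placed FLAG-tagged human *SRY* with *EGFP* under the same promoter, and the hSRY-ON pups used had not inherited *Ddx4-Cre*. A single transgenic line was used, every cell type of the liver can carry the active cassette, and whether the pups of both groups were littermates is not given in the sources used here. The methods give 3 mice for each group and call the samples biological triplicates.

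Arrays were of like quality, with median deposited intensities of 146.9 to 164.7 and 40.2 to 41.9% of probes detected, a probe being called detected on an array when its deposited detection p-value was under 0.01. Values below are log2 normalised intensities, differences are hSRY-ON minus hSRY-OFF on that log2 scale, and a probe was called higher or lower when limma's p was under 0.05 after Benjamini-Hochberg adjustment over 10734 tested probes. The transgene was accompanied by a broad change in these livers, since 33.1% of tested probes were called, 15.8% higher and 17.3% lower, and the 3 values of 1 group lay entirely above or below those of the other for 50% of tested probes. The median difference over all tested probes was 0.02. The hepatocyte list had 7 tested probes, of which 2 were called, both lower. The probe of *Alb*, the gene of serum albumin, had a difference of -1.11 ± 0.22 (SE). That of *Ttr*, a plasma carrier of thyroid hormone and retinol, had -0.46 ± 0.11. The *Alb* probe was far dimmer than the *Ttr* probe, with a control mean of 7.94 against 14.67. Whether it reports the main albumin transcript was not tested, so its difference is given for that probe alone.

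The regions upstream of the start sites of the member genes are given first. SRY and the SOX proteins bind the letters AACAAT and AACAAAG. ETS factors, the classical regulators of endothelial genes, bind around GGAAG. RefSeq promoters of assembly GRCm38.p6 were present for 6 of the 9 genes and searched on both strands over the 250 bases before the start site. Promoters of *Lyve1*, *Pecam1* and *Cdh5* were not in the table. *Clec4g* is shown as the member called lower, *Eng* as the member with the largest positive difference among those with a promoter, and *Tek* because it alone of the 6 held the SRY and SOX letters. Lines give the strand of the gene from 5′ to 3′, capitals mark the searched letters on either strand, the *Clec4g* and *Eng* stretches end before the annotated gene, and the *Tek* stretches are short windows around the matches.

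*Clec4g*, chr8:3720696-3720901, minus strand: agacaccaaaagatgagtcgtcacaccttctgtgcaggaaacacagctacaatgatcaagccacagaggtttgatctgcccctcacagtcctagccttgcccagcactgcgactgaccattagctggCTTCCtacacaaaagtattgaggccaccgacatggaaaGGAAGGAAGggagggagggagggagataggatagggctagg
*Eng*, chr2:32646345-32646594, plus strand: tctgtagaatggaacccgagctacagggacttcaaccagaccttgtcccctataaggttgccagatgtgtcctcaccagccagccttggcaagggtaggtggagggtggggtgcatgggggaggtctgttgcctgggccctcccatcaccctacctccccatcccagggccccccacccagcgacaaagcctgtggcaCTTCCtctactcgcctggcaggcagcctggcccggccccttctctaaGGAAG
*Tek* AACAAT, chr4:94739214-94739243, plus strand: gaggatacccctATTGTTcctgaaaatgct
*Tek* AACAAAG, chr4:94739251-94739280, plus strand: accttacttgtAACAAAGatccctctgccc

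The *Clec4g* region held GGAAG 3 times, with 1 overlapping pair, and *Eng* held it at 2 places, on opposite strands. Over the same window *Stab1* held 3 GGAAG matches, *Stab2* and *Kdr* 1 each, and *Tek* none (0). In *Tek*, AACAAT lay 58 to 63 bases upstream of the start site on the opposite strand. AACAAAG lay 21 to 27 bases upstream on the strand of the gene. Both *Tek* matches lie inside the annotated gene, which begins at chr4:94739086 before the start site used here. The matches of *Stab2* and *Kdr* also lie inside the annotated genes. Of 32851 promoters of the same length, 9.42% held AACAAT, 5.03% AACAAAG and 64.1% GGAAG. These are matches of letters and say nothing about occupancy in the liver.

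The 9 genes did not move as 1 block. *Lyve1* and both probes of *Pecam1* were called higher in hSRY-ON liver, *Clec4g* was called lower, and *Stab1*, *Stab2*, *Tek*, *Cdh5* and *Eng* were not called. This gives 3 of 9 tested probes higher and 1 lower, beside 15.8% and 17.3% of all tested probes. The groups did not overlap for 4 probes on the higher side (*Lyve1*, both *Pecam1* probes and *Stab1*) and 2 on the lower side (*Clec4g* and *Tek*), where 25.4% and 24.6% of all tested probes did so. Differences ran from -0.58 to 1.94 with a median of 0.24, and *Lyve1* had passed the detection filter only through the hSRY-ON group. Because whole liver was measured, fewer endothelial cells and less RNA per cell cannot be told apart in any of these values.

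**Figure D1:**
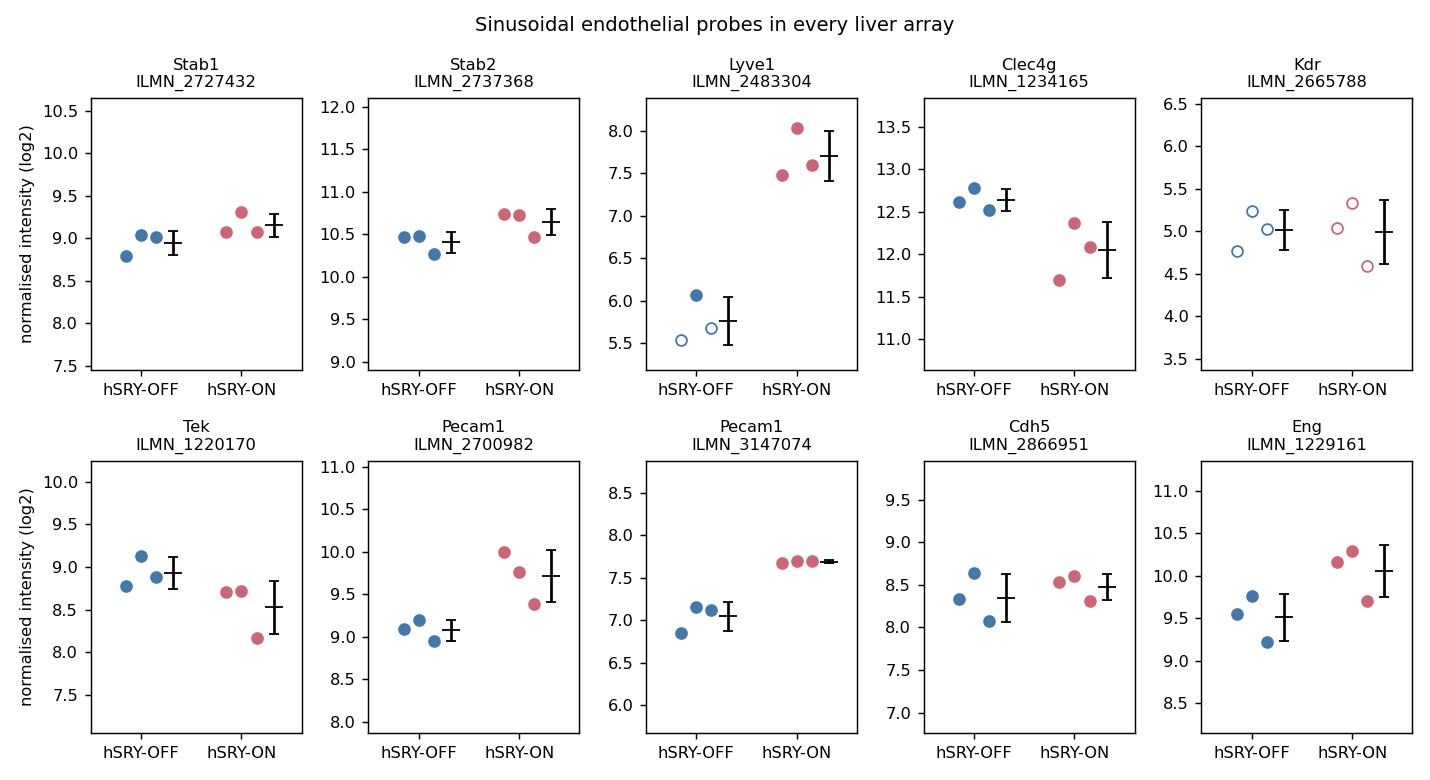
Log2 normalised intensity of each of the 10 probes on the 3 hSRY-OFF (blue) and 3 hSRY-ON (red) arrays, with filled points where the probe was detected, open points where it was not, and black bars for the group mean and SD; each panel spans the same range. *Lyve1* and both *Pecam1* probes lay higher on every hSRY-ON array, *Clec4g* and *Tek* lay lower, and *Kdr* was open on all 6 arrays.

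Of the receptors that take up or bind ligands in the sinusoid, *Lyve1* had the largest difference of the 9 tested probes. *Lyve1* encodes a hyaluronan receptor of lymphatic and sinusoidal endothelium that is also made by some tissue macrophages. Its values were 5.54, 6.07 and 5.68 on hSRY-OFF arrays 1 to 3 and 7.48, 8.03 and 7.60 on hSRY-ON arrays 1 to 3. The lowest hSRY-ON value stood well above the highest hSRY-OFF value. The difference was 1.94 ± 0.20 (SE; adjusted p = 0.000742), 3.84-fold, and 98.9% of tested probes had a smaller difference. Only hSRY-OFF replicate 2 detected the probe among controls, and with the other two set at their detection floor the difference was 1.85. Without background correction it was 0.90 and still called. For comparison, the lymphatic endothelial list without *Lyve1* had 3 tested probes, of which 2 were lower, where 17.3% of all tested probes were lower. Both were of *Prox1*, a transcription factor of lymphatic endothelium and hepatocytes, and the part of each cell type in its values was not tested. The probe of *Prox1* with the larger difference had -1.17 ± 0.26 (adjusted p = 0.0143; detected on 1 hSRY-ON array). The summed normalised intensity of that list was 670 to 901 in hSRY-OFF and 432 to 608 in hSRY-ON.

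*Clec4g* encodes LSECtin, a C-type lectin of sinusoidal endothelium, and it fell. Its values were 12.61, 12.77 and 12.52 in hSRY-OFF and 11.70, 12.37 and 12.08 in hSRY-ON. All hSRY-ON values lay below all hSRY-OFF values, with hSRY-ON replicate 1 the lowest and a gap of 0.15 between the groups. The difference was -0.58 ± 0.18 (adjusted p = 0.0466), 1.5-fold lower. The call stood close to the threshold: it was lost with no filter on dim probes (adjusted p = 0.0811), without any 1 of the hSRY-OFF arrays (adjusted p = 0.120, 0.147 and 0.0786 for arrays 1 to 3) and without hSRY-ON replicate 1 (0.105) or 3 (0.0656). The difference stayed negative throughout, from -0.76 to -0.42.

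The stabilins, large scavenger receptors for hyaluronan and other waste ligands, were not called. *Stab2* measured 10.46, 10.48 and 10.26 in hSRY-OFF and 10.74, 10.73 and 10.46 in hSRY-ON, and the groups overlapped at hSRY-ON replicate 3. The fitted difference was 0.24 ± 0.13 with a 95% interval of -0.08 to 0.55 (adjusted p = 0.207). *Stab1*, which is also made by macrophages, measured 8.78, 9.04 and 9.02 in hSRY-OFF and 9.07, 9.31 and 9.07 in hSRY-ON. Its groups were parted by 0.03, and its difference was 0.20 ± 0.13 with an interval of -0.11 to 0.52 (adjusted p = 0.281). A fall of the stabilins as large as that of *Clec4g* thus lay outside both intervals.

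**Figure D2:**
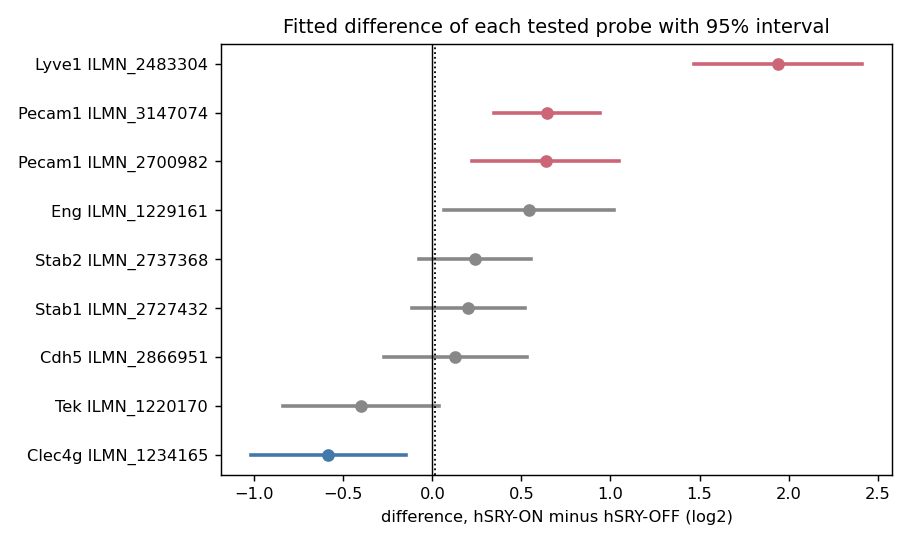
Fitted difference of each of the 9 tested probes (hSRY-ON minus hSRY-OFF, log2) with its 95% confidence interval, red for called higher, blue for called lower and grey for not called; the dotted line marks the median of all tested probes. *Lyve1* at 1.94 stands apart, the 2 *Pecam1* probes lie at 0.64, and *Clec4g* at -0.58 is the only probe called lower.

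*Kdr* and *Tek* encode receptor tyrosine kinases, VEGF receptor 2 and the angiopoietin receptor TIE2. *Kdr* was not detected on any array (0 of 6), with values of 4.77, 5.24 and 5.03 in hSRY-OFF and 5.04, 5.34 and 4.6 in hSRY-ON, and it was not tested. Its single probe gives no level here, and says nothing of whether the receptor was expressed. *Tek* measured 8.77, 9.13 and 8.88 in hSRY-OFF and 8.70, 8.71 and 8.16 in hSRY-ON. The groups were parted by 0.06, with hSRY-ON replicate 3 the lowest. The difference of -0.40 ± 0.19, with a 95% interval of -0.84 to 0.03, did not pass (adjusted p = 0.136), nor did it under any of the 18 alternatives run.

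At the contacts between endothelial cells, *Pecam1*, which encodes the adhesion molecule CD31 of endothelium, platelets and leukocytes, rose at both of its probes. Probe ILMN_3147074 measured 6.85, 7.16 and 7.12 in hSRY-OFF and 7.67, 7.70 and 7.70 in hSRY-ON. Probe ILMN_2700982 measured 9.09, 9.19 and 8.95 in hSRY-OFF and 9.99, 9.76 and 9.38 in hSRY-ON. Neither probe overlapped between groups, and the hSRY-ON arrays were nearly equal at the first probe and more widely spread at the second. The differences were 0.64 ± 0.13 (adjusted p = 0.00853) and 0.64 ± 0.18 (adjusted p = 0.0294). The second lost its call without any 1 of the hSRY-OFF arrays (adjusted p = 0.0887, 0.0648 and 0.0928), without hSRY-ON replicate 1 (0.0809) or 2 (0.0641), with no filter (0.0503) and with median or trimmed-mean scaling (0.0907 and 0.0632), while the first was called under each of these.

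Markers of megakaryocytes and platelets, which carry CD31 as well, moved with *Pecam1*. Of 9 tested probes of that list, covering all 7 of its genes on the array, 8 were higher and none (0) lower, where 15.8% of all tested probes were higher. The list had a median of 1.19 and a summed intensity of 3161 to 4883 in hSRY-OFF against 6141 to 7749 in hSRY-ON. They included *Gp1bb*, of the platelet receptor for von Willebrand factor (1.62 ± 0.25, adjusted p = 0.00341), *Itga2b*, the platelet integrin (1.62 ± 0.23, adjusted p = 0.00227), and *Cxcl4*, platelet factor 4 (1.56 ± 0.33, adjusted p = 0.0119). The count of higher probes fell to 3 with a threshold of 0.01, to 3 without hSRY-OFF replicate 1 and to 4 without hSRY-OFF replicate 2. The part of these cells in the difference of *Pecam1* was not tested.

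*Cdh5* encodes VE-cadherin, the adhesion molecule of endothelial adherens junctions. It measured 8.33, 8.64 and 8.08 in hSRY-OFF and 8.53, 8.60 and 8.31 in hSRY-ON. The groups overlapped, and the difference was 0.13 ± 0.17 with a 95% interval of -0.27 to 0.53 (adjusted p = 0.598).

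*Eng* encodes endoglin, the co-receptor for BMP9 and BMP10. Its values were 9.55, 9.76 and 9.22 in hSRY-OFF and 10.17, 10.29 and 9.71 in hSRY-ON. Only hSRY-ON replicate 3 fell below the highest hSRY-OFF value. The difference of 0.54 ± 0.20, with a 95% interval of 0.07 to 1.02, did not pass after adjustment (adjusted p = 0.0770). It passed with array weights (adjusted p = 0.0210), with the replicate number as a block (0.0281) and without hSRY-ON replicate 3 (0.0212).

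**Figure D3:**
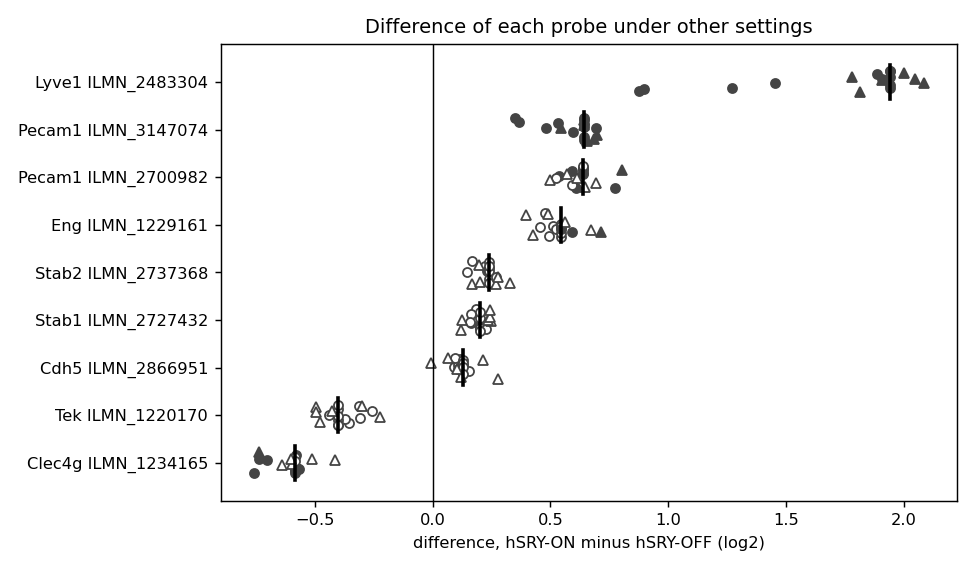
Difference of each tested probe (hSRY-ON minus hSRY-OFF, log2) under other settings (circles) and with 1 array left out (triangles), filled where called, with a black tick at the value reported. *Lyve1* and *Pecam1* probe ILMN_3147074 stay filled throughout, *Clec4g* and *Pecam1* probe ILMN_2700982 hold both filled and open marks, and no mark of *Tek*, *Stab1*, *Stab2* or *Cdh5* is filled.

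The member probes shared part of their order over the arrays of a group, more so in hSRY-OFF. hSRY-OFF replicate 2 was the highest control at 9 of 9 tested probes, while it was the highest control at 35.4% of all tested probes. Among hSRY-ON arrays, replicate 2 was highest at 6 of the 9 and replicate 3 lowest at 6, against 31.6 and 36.4% of all tested probes. Replicate 1 was highest at 2 of them and lowest at 3. Ratios between members on the same array were therefore formed for 5 pairs, chosen after their values were seen and not tested, each relative to its hSRY-OFF mean.

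The ratio of *Tek* to *Eng* was -0.20, -0.05 and 0.24 on the hSRY-OFF arrays and -0.89, -0.99 and -0.96 on the hSRY-ON arrays. Its SD was 0.06 over the hSRY-ON arrays, where *Tek* alone had 0.31 and *Eng* 0.30, and 0.22 over the hSRY-OFF arrays, where *Tek* alone had 0.18 and *Eng* 0.27. The ratio of *Clec4g* to *Stab2* was lower in hSRY-ON by a mean difference of -0.82, with array values of -1.27, -0.59 and -0.61. Its SD over the hSRY-ON arrays was 0.38, above that of *Clec4g* alone (0.33) and *Stab2* alone (0.16). Over the hSRY-OFF arrays it was 0.07, where *Clec4g* alone had 0.13 and *Stab2* 0.12. The ratio of *Pecam1* (ILMN_2700982) to *Tek* was higher by 1.04. The other two pairs held *Lyve1*, which only 1 hSRY-OFF array detected, and are not given. Because the pairs were chosen on their values, these ratios describe unequal change of the members and give no separate support for it.

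The tested probes most alike to the 4 called probes over the 6 arrays were found by Pearson's r, as a description over arrays that share their groups. For *Lyve1* they were those of *Trem1*, a receptor of myeloid cells (r = 0.998), and *Naca*, a chaperone of nascent chains (0.997), and the unmatched symbol LOC100047615 (0.996), with 368 probes above 0.95. For *Clec4g* they were *Cyp2c67*, a cytochrome P450 of hepatocytes (0.997), *Spsb3* (0.986) and *Gprasp1* (0.986), with 61 probes above 0.95. For *Pecam1* probe ILMN_2700982 they were D4Wsu132e, now *Zcchc7* (0.997), *Cited2* (0.997) and *Lgmn*, a lysosomal protease (0.996), with 210 probes above 0.95. For probe ILMN_3147074 they were *Rpl23*, a ribosomal protein (0.998), *Puf60* (0.996) and *Otud5* (0.995), with 241.

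Lists of further endothelial and pathway genes were read beside the members. Together 8 lists held 134 genes, of which 81 were tested with 100 probes. Of these probes 25 were higher and 6 lower, 31% in all beside 33.1% of all tested probes, and the median difference was 0.12.

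**Figure D4:**
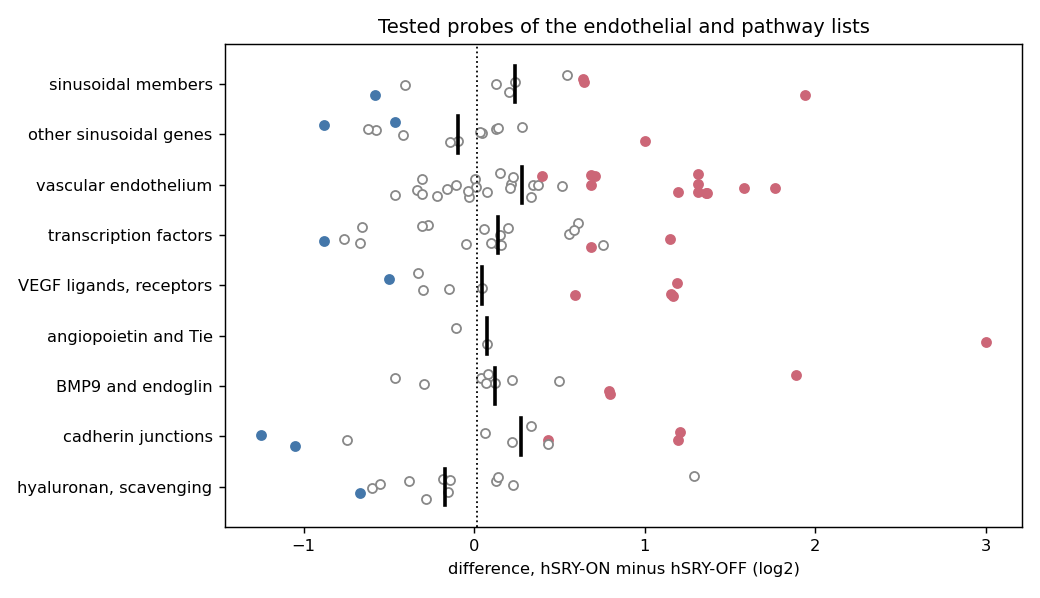
Differences (hSRY-ON minus hSRY-OFF, log2) of all tested probes of the member set and the 8 lists, 1 point a probe, red for called higher, blue for called lower and open grey for not called, with a black tick at each list's median and a dotted line at the median of all tested probes. Calls of the vascular endothelial list all lie to the right, those of other sinusoidal genes to both sides, and *Angpt2* is the far point at 3.0.

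The list of vascular endothelium at large was called in 1 direction, apart from 1 lower probe with trimmed-mean scaling and without hSRY-ON replicate 1 or 2. Of its 32 tested probes, covering 25 of 37 genes, 12 were higher and none (0) lower, where 15.8% and 17.3% of all tested probes were higher and lower. That is 37.5% called, beside 33.1% of all tested probes. Some genes count more than once among the 12, such as *Mcam* with all its probes. The list's summed intensity was 31788 to 34129 in hSRY-OFF and 42223 to 44920 in hSRY-ON. *Mcam*, the adhesion molecule CD146, rose from 8.13 ± 0.09 (SD, n = 3) to 9.89 ± 0.22, a difference of 1.76 ± 0.14 (adjusted p = 0.000292), at the probe with the largest difference, and its other two probes rose by 1.31 ± 0.18 and 1.31 ± 0.16. *Gpihbp1*, which holds lipoprotein lipase on capillaries, rose from 9.67 ± 0.13 to 11.25 ± 0.21, a difference of 1.58 ± 0.15 (adjusted p = 0.000492). *Robo4*, an endothelial guidance receptor, rose by 1.37 ± 0.20 (adjusted p = 0.00252), and *Notch4*, the endothelial Notch receptor, by 1.36 ± 0.17 (adjusted p = 0.00159). *Vwf*, which encodes von Willebrand factor of endothelium and platelets, rose by 1.31 ± 0.26 (adjusted p = 0.00852), and the megakaryocyte values given above move with it. Not called were *Cd34*, the sialomucin of capillary endothelium (0.01 ± 0.16), *Plvap*, of the diaphragms of fenestrae (0.38 ± 0.31), and the 3 probes of *Nos3*, the endothelial nitric oxide synthase (-0.31, 0.01 and -0.31).

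Other genes of the sinusoid went both ways, with 1 of 13 tested probes higher, 2 lower and a median of -0.09. That is 23.1% called, beside 33.1% of all tested probes. *Oit3*, a secreted protein of hepatic sinusoidal cells, rose from 9.36 ± 0.15 to 10.36 ± 0.20, a difference of 1.0 ± 0.15 (adjusted p = 0.00296). *Dnase1l3*, a nuclease secreted by sinusoidal endothelium and macrophages, fell from 10.54 ± 0.17 to 10.08 ± 0.15, a difference of -0.47 ± 0.14 (adjusted p = 0.0406), and this call was lost under 9 of 18 alternatives (adjusted p up to 0.141). *Gata4*, the transcription factor of sinusoidal identity that stellate cells also express, was detected in all 3 controls and in 0 hSRY-ON livers. Its fitted difference was -0.88 ± 0.21 (adjusted p = 0.0183). It was at least 1.37-fold lower, a bound that was not itself tested. *Mrc1*, the mannose receptor (0.14 ± 0.15), and both tested probes of *Fcgr2b*, the inhibitory Fc receptor (-0.14 ± 0.17 and 0.13 ± 0.21), were not called. *Wnt2*, *Bmp2* and *Gdf2*, the BMP9 gene, were detected on at most 1 array each.

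Of the hyaluronan and scavenging genes, which act beside the stabilins and *Lyve1*, none (0) of 12 tested probes was higher and 1 was lower, with a median of -0.17, where 15.8% and 17.3% of all tested probes were higher and lower. The lower one was *Lrp1*, an endocytic receptor of many liver cells (-0.67 ± 0.21, adjusted p = 0.0441), detected on all 3 hSRY-OFF arrays and 1 hSRY-ON array, and with the undetected arrays at their floor the difference was -0.32. That call was lost under 15 of 17 alternatives (adjusted p up to 0.157). The largest difference of the list was that of *Hyal1*, a lysosomal hyaluronidase, at 1.29 ± 0.45, with overlapping groups and an adjusted p of 0.0638.

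Around the receptor kinases, several ligand genes were called while *Tek* was not. *Angpt2*, a context-dependent ligand of TIE2 made by activated endothelium, rose from 6.45 ± 0.33 to 9.45 ± 0.21, a difference of 3.0 ± 0.20 (adjusted p = 0.000151), 8.01-fold, at 1 probe, and its second probe was not detected. *Tie1*, the partner receptor of TIE2, was not called (0.08 ± 0.26), and *Angpt1*, the main agonist of TIE2, was not detected. In the VEGF list 4 of 9 tested probes were higher and 1 lower, 55.6% called beside 33.1% of all tested probes. *Flt1*, VEGF receptor 1, rose by 1.19 ± 0.14 (adjusted p = 0.00131) at the probe detected, and *Vegfa*, the main ligand of the *Kdr* product, rose by 1.17 ± 0.29 (adjusted p = 0.0202) and 1.16 ± 0.20 (adjusted p = 0.00549) at its 2 tested probes. *Vegfb*, a ligand of VEGF receptor 1, rose by 0.59 ± 0.14 (adjusted p = 0.0188), while *Figf*, now *Vegfd*, fell by 0.50 on the log2 scale (SE 0.16, adjusted p = 0.0476), a call lost under 14 of 18 alternatives (adjusted p up to 0.155). *Flt4*, VEGF receptor 3 (0.04 ± 0.23), and the co-receptor *Nrp1* (-0.33 ± 0.16 and -0.30 ± 0.18) were not called.

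In the BMP9 and endoglin list, the pathway of *Eng*, 3 of 11 tested probes were higher and none (0) lower. That is 27.3% called, beside 33.1% of all tested probes. *Bmper*, a secreted modulator of BMP signalling, rose from 6.10 ± 0.08 to 7.99 ± 0.19, a difference of 1.89 ± 0.14 (adjusted p = 0.000188). *Id1*, a direct target of BMP signalling in endothelium, rose by 0.80 ± 0.19 (adjusted p = 0.0162). The probes of *Smad5*, a transducer of BMP signals, disagreed. ILMN_3076864, which no hSRY-OFF array detected, had a fitted difference of 0.79 ± 0.21 (adjusted p = 0.0263), a call lost under 8 of 14 alternatives. It was at least 1.43-fold higher, a bound that was not itself tested. ILMN_3155789, detected on all 6 arrays, had a difference of -0.46 ± 0.15 and was not called (adjusted p = 0.0554). *Acvrl1*, the ALK1 receptor for BMP9, was not detected on any of the 6 arrays.

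In the list of cadherin junctions, to which *Cdh5* belongs by function, 3 of 10 tested probes were higher and 2, both of *Jam2*, lower. That is 50% called, beside 33.1% of all tested probes. *Vcl*, the junctional and focal adhesion protein vinculin, rose by 1.21 ± 0.26 (adjusted p = 0.0115), *Esam*, an adhesion molecule of endothelium and platelets, by 1.19 ± 0.12 (adjusted p = 0.000685), and *Ctnna1*, alpha-catenin, by 0.43 ± 0.13 (adjusted p = 0.0379). The call of *Ctnna1* was lost under 9 of 18 alternatives (adjusted p up to 0.317). *Jam2*, a junctional adhesion molecule, was detected on no hSRY-ON array. Its 2 lower probes, which count in the 50%, had passed the detection filter only through the hSRY-OFF group. At the probe with the larger difference, the fitted difference was -1.25 ± 0.14 (adjusted p = 0.000904). That probe was at least 1.37-fold lower, a bound that was not itself tested. Of the endothelial transcription factors, 2 of 19 tested probes were higher and 1, *Gata4*, lower, 15.8% called beside the same 33.1%. The higher ones were *Gata2*, also a factor of blood progenitors (1.15 ± 0.24, adjusted p = 0.0108, detected on 1 hSRY-OFF array and 0.995 with the others at their floor), and *Sox18*, a SOX factor of vessels (0.68 ± 0.17, adjusted p = 0.0186). *Klf2*, the flow-responsive factor, was not called (-0.67 ± 0.34).

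**Figure D5:**
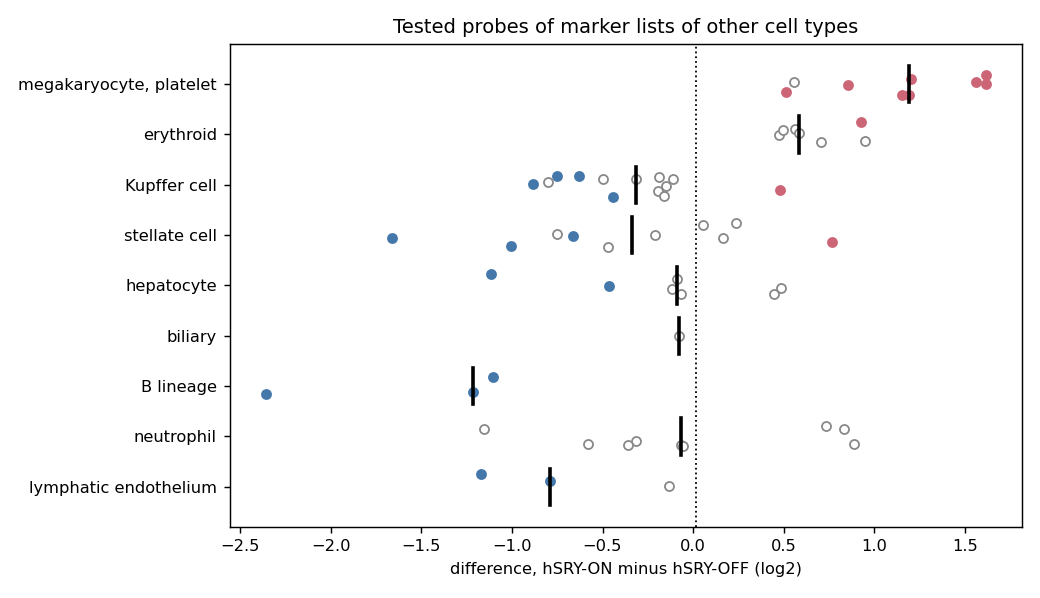
Differences (hSRY-ON minus hSRY-OFF, log2) of all tested probes of marker lists of 9 other cell types, 1 point a probe, red for called higher, blue for called lower and open grey for not called, with a black tick at each list's median and a dotted line at the median of all tested probes. The megakaryocyte list lies to the right with 8 of 9 probes called, the B lineage list to the left with 3 of 3, and the Kupffer and stellate lists mostly to the left.

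Markers of the cells that share genes or space with the sinusoidal endothelium were read too, and their part in the values above was not tested. The share called was 38.5% in the Kupffer cell list and 40% in the stellate cell list, near the 33.1% of all tested probes. Of the Kupffer cell list, whose cells can express *Stab1* and *Lyve1*, 4 of 13 tested probes were lower and 1 higher with a median of -0.32, among them *Clec4f*, the lectin of Kupffer cells (-0.88 ± 0.19, adjusted p = 0.0132), *Emr1*, now *Adgre1*, a surface receptor of macrophages (-0.75 ± 0.16), and *Vsig4*, the complement receptor of Kupffer cells (-0.63 ± 0.17). The other tested probe of *Emr1* had a difference of -0.80 ± 0.33 with overlapping groups and was not called (adjusted p = 0.0971). *Csf1r*, the receptor of macrophage growth factor, was higher at 1 probe (0.48 ± 0.15, adjusted p = 0.0433), a call lost under 13 of 18 alternatives. The other tested probe of *Csf1r* had a difference of -0.16 ± 0.14 and was not called. Summed intensities were 24489 to 29523 in hSRY-OFF and 19336 to 24435 in hSRY-ON, with *Cd5l* not detected.

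Of the stellate cell list 3 of 10 were lower and 1 higher with a median of -0.34, where 17.3% and 15.8% of all tested probes were lower and higher. *Lrat*, the retinol-esterifying enzyme that defines stellate cells, was undetected on all 3 hSRY-ON arrays. Its fitted difference was -1.66 ± 0.15 (adjusted p = 0.00039). It was at least 2.23-fold lower, a bound that was not itself tested. The collagen-binding *Lum* (-1.01 ± 0.19) and *Reln* (-0.66 ± 0.12) were lower too, and *Des*, a filament protein of stellate and muscle cells, was higher (0.77 ± 0.23, adjusted p = 0.0383), a call lost under 9 of 18 alternatives (adjusted p up to 0.123). Summed intensities of that list were 12953 to 15181 in hSRY-OFF and 9885 to 11736 in hSRY-ON, with *Hgf* not detected. All 3 tested probes of the B lineage list were lower, among them *Vpreb1*, the surrogate light chain of B cell precursors (-2.36 ± 0.36, detected on 1 hSRY-ON array), and *Cd79b*, of the B cell receptor (-1.21 ± 0.26). Of 7 tested erythroid probes 1 was called higher, *Alas2*, the erythroid aminolevulinate synthase (0.93 ± 0.20, adjusted p = 0.0117). All 7 had positive differences, with a median of 0.59. Summed intensities of the erythroid list were 26516.1 to 48467.8 in hSRY-OFF and 48608.5 to 65286 in hSRY-ON. Of the remaining lists, none (0) of 9 neutrophil probes was called, and the only biliary probe tested was not called.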

How the data were processed

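Total RNA of 3 hSRY-ON and 3 hSRY-OFF livers was run on Illumina MouseRef-8 bead arrays by the authors. The deposited table gives for 25697 probes a linear mean bead intensity, neither background-subtracted nor normalized, and a detection p-value against negative controls. The submitters' processing notes name limma without a version, while the study's methods name TCC for normalization and differential expression. TCC is a package for counts and was not used here, because the values are intensities. Scanner settings are not given in the sources used here. Columns without a sample numbered 0. Slides and scan dates were not used here.

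Background was removed per array with limma 3.58.1 (nec, offset 16) in R 4.3.3, intensities were quantile normalised and then log2 transformed. Probes with detection p under 0.01 on at least 3 of 6 arrays (10734) were tested with lmFit and eBayes without covariates, two-sided, with Benjamini-Hochberg adjustment over all of them and a threshold of 0.05. The offset shrinks differences of dim probes, and the number of arrays limits precision. For a probe that 1 group did not detect on any of its arrays, the brighter mean was divided by the dimmer group's mean of the higher of the probe's own signal and the lowest detected signal on the array ("at least N-fold"). The bound was not tested, and an adjusted p given with it belongs to the fitted difference without the floor. Such probes (*Gata4*, *Jam2*, *Lrat* and *Smad5* ILMN_3076864) had passed the detection filter only through the brighter group. Probes of a gene were tested separately. Of 18138 symbols, 14307 were current in RefSeq (GRCm38.p6), 2927 matched through older names and 904 were not matched.

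The members and lists were chosen with earlier results of these data known. Named were all members, 20 pathway genes whatever their values, up to 4 called genes per direction of each list, and the 3 probes most correlated with a called member. A gene that this rule would name is not reported here. The fit was tested on simulated data. Alternatives covered background, offset, scaling, filters, variance model, array weights, threshold, a replicate block and leaving out each array.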

Additional observations from a re-analysis of the deposited data

How the results depend on the processing

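The 9 tested sinusoidal probes gave 161 values under other settings, of which 140 kept both direction and side of the threshold, 17 lost a call, 3 gained one and 1 changed sign. *Lyve1* was called under each of the 17 alternatives that could be run, with differences of 0.88 to 2.09 (it is not tested when detection on all 6 arrays is asked), *Pecam1* probe ILMN_3147074 under all 18 at the threshold of each, *Pecam1* probe ILMN_2700982 in 9 of 18, and *Clec4g* in 10 of 18. The count of lower member probes was 0 with no filter, with a detection p under 0.05 and with a threshold of 0.01, and 0 to 1 with 1 array left out. Over all tested probes, 693 were higher and 972 lower at a threshold of 0.01, and with 1 array left out 856 to 1822 were higher and 965 to 2125 lower, the lowest counts without hSRY-OFF replicate 1. In the 8 pathway lists, 16 probes were higher and 2 lower at a threshold of 0.01, 3 were lower with median scaling and 3 with trimmed-mean scaling, 13 were lower with array weights, and 19 to 28 were higher and 0 to 11 lower with 1 array left out (0 without hSRY-OFF replicate 1 or 2, 11 without hSRY-ON replicate 2). The cause was not tested.

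Changes of sign were seen only in probes that were not called. *Cdh5* was -0.0056 without hSRY-OFF replicate 3, in a range up to 0.28 with 1 array left out. *Cd34* was -6.28e-06 without background correction, -0.019 with median scaling, -0.00063 with trimmed-mean scaling, -0.016 with array weights, -0.12 without hSRY-OFF replicate 2 and -0.075 without hSRY-ON replicate 3, in a range up to 0.12 with 1 array left out. *Fcgr2b* was 0.0061 at ILMN_1228657 without hSRY-OFF replicate 2 (lowest with 1 array left out, -0.25) and -0.061 at ILMN_3102376 without hSRY-ON replicate 2 (highest 0.28). *Flt4* was -0.0048, -0.092 and -0.080 without hSRY-OFF replicate 1, hSRY-ON replicate 1 and hSRY-ON replicate 2 (highest 0.31). *Nos3* (ILMN_2729153) was -0.041 with median and -0.0065 with trimmed-mean scaling, -0.070 with array weights, -0.032 without hSRY-OFF replicate 3 and -0.16 without hSRY-ON replicate 2. *Tie1* was -0.044 and -0.12 without hSRY-ON replicate 1 and 2 (highest 0.40).

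The labels number replicates 1 to 3 in both groups. Deviations of same-numbered arrays correlated at 0.02, 0.10 and 0.05, and not every array correlated best with its own number. These correlations cannot show whether same-numbered arrays shared a litter, slide or batch, which was not tested. With the replicate number as a block, 1565 probes were higher and 1645 lower, of the member probes 4 were higher and 1 lower, and of the pathway lists 24 were higher and 8 lower. With 3 arrays per group, probes near background such as *Lyve1* and *Gata4* in 1 group and *Kdr* in both are limited by signal over background.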
